A study of Rattus norvegicus with 31 samples.

Results

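Kidney cortex of rats (Rattus norvegicus) that received calcitriol on top of a high-salt diet (CAL) was compared with kidney cortex of rats on the high-salt diet alone (HS). The libraries were chosen by their group labels: all 6 CAL and all 4 HS cortex libraries, 10 of the 31 samples of the series. Both groups share the high-salt diet and differ in the calcitriol. A further 5 cortex libraries of normal controls (NC) entered the same fit and give the control level of each gene. The series asks what calcitriol does in hypertension brought on by dietary salt. The labels name the tissue as cortex, and strain, sex, age, salt content, calcitriol dose and duration were not used here. The labels also do not say whether the libraries of a group come from separate animals, so each p measures the spread between these samples, which may be partly technical.

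Calcitriol is the active hormone form of vitamin D. It binds the vitamin D receptor, a nuclear receptor that pairs with a retinoid X receptor on DNA, and the best known gene it switches on is Cyp24a1, whose enzyme breaks calcitriol down again. The kidney cortex holds the proximal tubules, which take back filtered glucose, amino acids, phosphate and sodium and also make calcitriol through the enzyme Cyp27b1, together with the glomeruli, in which podocytes cover the capillaries, and parts of the distal nephron.

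The deposited values were whole-number read counts per gene. Totals ran from 530018 to 2265164 counts in the CAL libraries (median 635788), from 289529 to 849406 in HS (median 578703) and from 513294 to 1239310 in NC (median 632941). Levels are given as counts per 1e6 counts (CPM) after trimmed-mean (TMM) scaling, whose factors were 0.977 to 1.04 in CAL and 0.964 to 1.01 in HS. Sums over a list of genes are CPM of all counts without that scaling. A count of 0 allows up to 1.32 to 5.66 CPM in the CAL libraries and up to 3.53 to 10.4 CPM in the HS libraries, taking 3 counts as the limit and counting error only. The labelled tissue had its markers: 19 proximal tubule genes summed to 38851 to 51136 CPM in CAL and 42302 to 44521 CPM in HS. A list of 8 genes of the adrenal gland and inner medulla, which holds the tubule gene Aqp1, summed to 2045 to 3696 CPM in CAL and 2042 to 2652 CPM in HS. A 0 in the table need not mean absent RNA, since Fth1, the ferritin heavy chain that nearly all cells use, was at 0 in all 15 libraries. On the first principal component of the 10 CAL and HS libraries, which held 23.9% of the variance, CAL lay between 1.28 and 6.80. HS replicate 3, the shallowest library, stood apart at -24.0, and the other HS libraries lay between -2.46 and -0.54.

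Of 20207 listed genes, 7524 had enough counts to be tested with the edgeR quasi-likelihood test. With calcitriol, 20 genes were higher (0.266% of those tested) and 37 lower (0.492%) at an adjusted p under 0.05, together 57 genes or 0.758%. The higher genes had a median size of 1.06 on the log2 scale, led by haemoglobin chains, the actin-binding Cotl1 and Synpo and the calcitriol-degrading Cyp24a1. The lower genes had a smaller median size of 0.78 and included the nuclear receptor Esrrg, the cell cycle kinase Wee1, the secretory protein Nucb2 and the lysosomal protease Ctsl. Over all tested genes the median log2 fold change of CAL over HS was -0.01, with quartiles of -0.23 and 0.21, and 1219 genes (16.2%) had an unadjusted p under 0.05. Of all tested genes, 3685 lay above 0 and 3839 below. The CAL and HS values did not overlap for 48 of the 57 genes, against 314 of all tested genes (4.17%). Of the 48, 17 were higher in CAL, against 1.87% of all tested genes that were higher without overlap, and 31 were lower, against 2.3%.

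**Figure D1:**
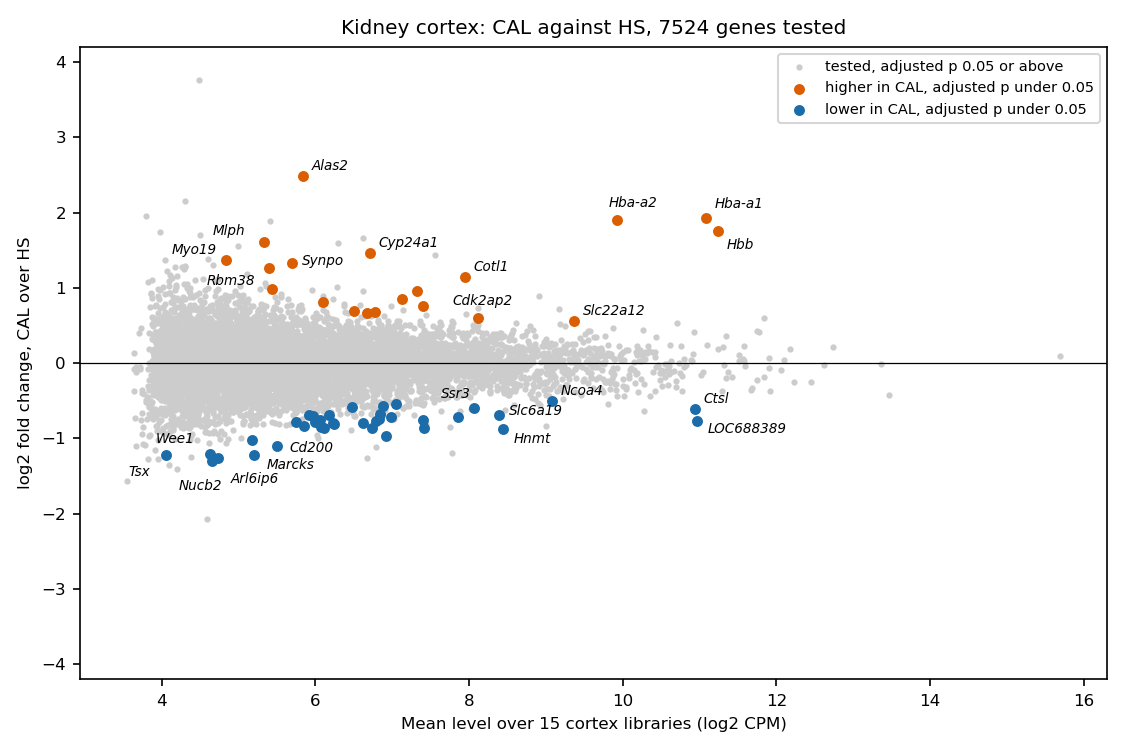
Each point is 1 of 7524 tested genes, with its mean level over the 15 cortex libraries (log2 CPM) on the x axis and its log2 fold change of CAL over HS on the y axis; orange and blue points passed the threshold. The haemoglobin genes Hba-a1, Hba-a2 and Hbb stand at the right between 1.76 and 1.92, and the blue points lie between -1.30 and -0.51.

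The number of genes past the threshold depended on the HS libraries. Without HS replicate 2 only Cotl1 and Synpo remained of the 57 calls, and without HS replicates 1, 3 or 4 the calls that remained numbered 9, 27 and 13. Leaving out 1 CAL library kept 25 of the 57 (without replicate 1, the deepest), 41 (without 2), 31 (without 3), 26 (without 4), 55 (without 5) and 29 (without 6), and leaving out 1 NC library kept 43 to 56. A call is described below as lost without a library where its adjusted p came to 0.05 or above in that fit. Fits to the same libraries with other settings gave between 5 genes (all libraries thinned to the shallowest) and 128 (no filter on low counts).

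**Figure D2:**
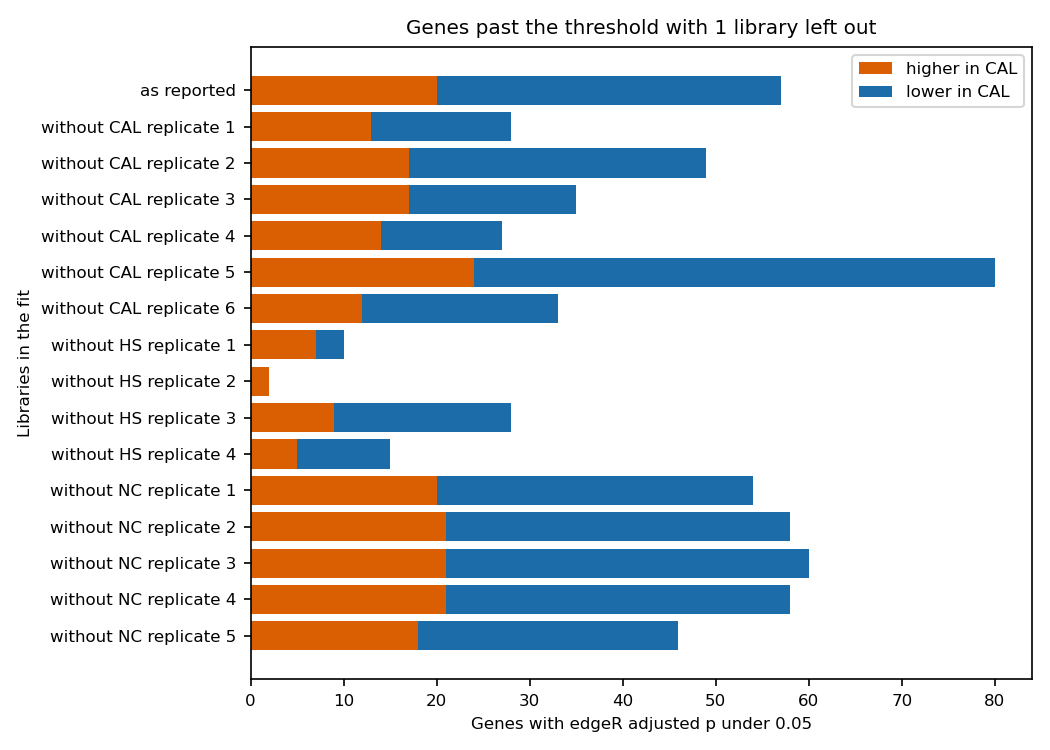
Bars give the number of genes past the threshold (edgeR adjusted p under 0.05) in the fit as reported and in 15 fits that each leave out 1 library, with genes higher in CAL in orange and lower in blue. The count is 57 as reported; dropping HS replicate 2 leaves 2, dropping HS replicate 1 leaves 10, and dropping CAL replicate 5 gives 80.

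Genes of the actin cytoskeleton held the calls with the smallest p. Cotl1, a coactosin-like protein that binds actin filaments, had 244 to 392 CPM (median 264) in CAL, against 173, 96.1, 119 and 134 CPM in HS and a mean of 279 ± 44.4 CPM in NC (SD, n = 5). Every CAL library lay above every HS library, and the CAL range overlapped that of NC. The log2 fold change was 1.14 (SE 0.17, adjusted p = 0.00252), and the call passed in all 25 other fits, with its highest adjusted p among the fits without 1 library at 0.0459, without HS replicate 2. Synpo encodes synaptopodin, which organises actin in the foot processes of podocytes. It had 59.6 to 86.3 CPM (median 65.8) in CAL, against 24.4, 29.0, 21.0 and 31.0 CPM in HS and 39.0 ± 8.36 CPM in NC. All 6 CAL libraries lay above the highest HS library and above the highest NC library. The log2 fold change over HS was 1.33 (SE 0.20, adjusted p = 0.00252), past the threshold in all 15 fits without 1 library, at most 0.0445 without HS replicate 2, but not when all libraries were thinned to the shallowest (adjusted p = 0.141).

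Other genes around actin and cell adhesion moved in both directions. Tns1, a tensin that ties actin to integrins at focal adhesions, had 131 to 236 CPM (median 163) in CAL and 97.5, 64.1, 98.2 and 94.3 CPM in HS. The groups did not overlap, and HS replicate 2 lay below the other HS libraries. Tns1 had a log2 fold change of 0.95 (SE 0.21, adjusted p = 0.0332), lost without CAL replicate 6 (0.0586) or HS replicates 1 (0.0816), 2 (0.144), 3 (0.0581) or 4 (0.0837). Arhgef7, an exchange factor for Rac and Cdc42, was higher by 0.99 (SE 0.23, adjusted p = 0.0410), and Myo19, a myosin that carries mitochondria along actin, by 1.37 (SE 0.31, adjusted p = 0.0376). Marcks, a protein kinase C substrate that cross-links actin at the membrane, was lower in CAL, with -1.22 (SE 0.28, adjusted p = 0.0376), as was Arhgap5, a GTPase-activating protein, with -1.02 (SE 0.24, adjusted p = 0.0410). These 4 calls were lost in 10 of 15 fits (up to 0.195 without HS replicate 2) for Arhgef7, in 7 of 15 fits (up to 0.163 without HS replicate 2) for Myo19, in 8 of 15 fits (up to 0.120 without HS replicate 2) for Marcks and in 8 of 15 fits (up to 0.127 without HS replicate 2) for Arhgap5. In a list of 36 tested actin regulators, 2 were called higher (Cotl1 and Synpo) and 2 lower (Marcks and Arhgap5), beside 0.266% and 0.492% of all tested genes. The list median of 0.01 lay close to the -0.01 of all tested genes. This list, like those below, was chosen with earlier results of these data known. Its share of calls is therefore no test of the list.

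The Synpo values were set beside other podocyte genes. Of 10 tested podocyte markers, Synpo alone was called, beside 0.266% of all tested genes called higher, and the median log2 fold change was 0.24. Clic5, an intracellular chloride channel protein of foot processes, had a log2 fold change of -0.77 (SE 0.25, adjusted p = 0.134), short of the threshold. The 14 listed podocyte genes summed to 653 to 1272 CPM in CAL and 544 to 994 CPM in HS, so the summed level overlapped where Synpo itself did not. Whether the number of podocytes in the pieces moved with Synpo was not tested, and in bulk tissue more cells of a type and more RNA per cell cannot be told apart.

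Cyp24a1, the textbook target gene of calcitriol, was higher in CAL. It had 80.3 to 245 CPM (median 135) in CAL, against 44.3, 73.2, 80.6 and 37.0 CPM in HS and 69.6 ± 15.5 CPM in NC. The lowest CAL library lay just under the highest HS library, so the groups touched, and CAL values spread more widely than those of HS. The log2 fold change over HS was 1.46 (SE 0.30, adjusted p = 0.0221), and over NC 1.17 (SE 0.26, adjusted p = 0.0832). Robust empirical Bayes (adjusted p = 0.0879), a block for the replicate number (0.0811) and thinning to the shallowest library (0.150) each ended the call over HS. It was also lost without HS replicates 1 (0.0900), 2 (0.0697) or 4 (0.0868).

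Cyp24a1 was the one gene called among 16 tested genes of vitamin D metabolism and response, beside 0.266% of all tested genes called higher. The median log2 fold change of the 16 was -0.01, as over all tested genes. The receptor gene Vdr averaged 137 ± 53.4 CPM in CAL and 98.6 ± 21.8 CPM in HS, a log2 fold change of 0.50 (SE 0.23, adjusted p = 0.287). Its retinoid X partner Rxrb averaged 27.0 ± 7.40 CPM in CAL and 15.2 ± 2.20 CPM in HS, at 0.85 (SE 0.33, adjusted p = 0.202), and Pth1r, the parathyroid hormone receptor, 636 ± 140.4 CPM in CAL and 445 ± 84.0 CPM in HS, at 0.51 (SE 0.16, adjusted p = 0.114). None of these 3 passed the threshold. Genes of calcium reabsorption in the distal nephron had negative values short of the threshold: Trpv5, the apical calcium channel, averaged 9.16 ± 4.84 CPM in CAL and 18.7 ± 9.15 CPM in HS (-1.10 (SE 0.38, adjusted p = 0.153)), and Calb1, the calcium buffer calbindin, 1039 ± 588 CPM in CAL and 1394 ± 343 CPM in HS (-0.44 (SE 0.27, adjusted p = 0.442)). Both had lower means in NC, at 3.68 ± 2.17 CPM for Trpv5 and 558 ± 82.7 CPM for Calb1. Kl, the co-receptor for the phosphate hormone FGF23, had -0.38 (SE 0.24, adjusted p = 0.457), and Slc34a1, the main phosphate transporter of the proximal tubule, -0.07 (SE 0.13, adjusted p = 0.844). Cyp27b1 was too low to test, with 4 counts in all over the 6 CAL libraries, 9 over the 4 HS libraries and 3 over the 5 NC libraries. Trpv6 had 0 counts in CAL, 2 in HS and 3 in NC.

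**Figure D3:**
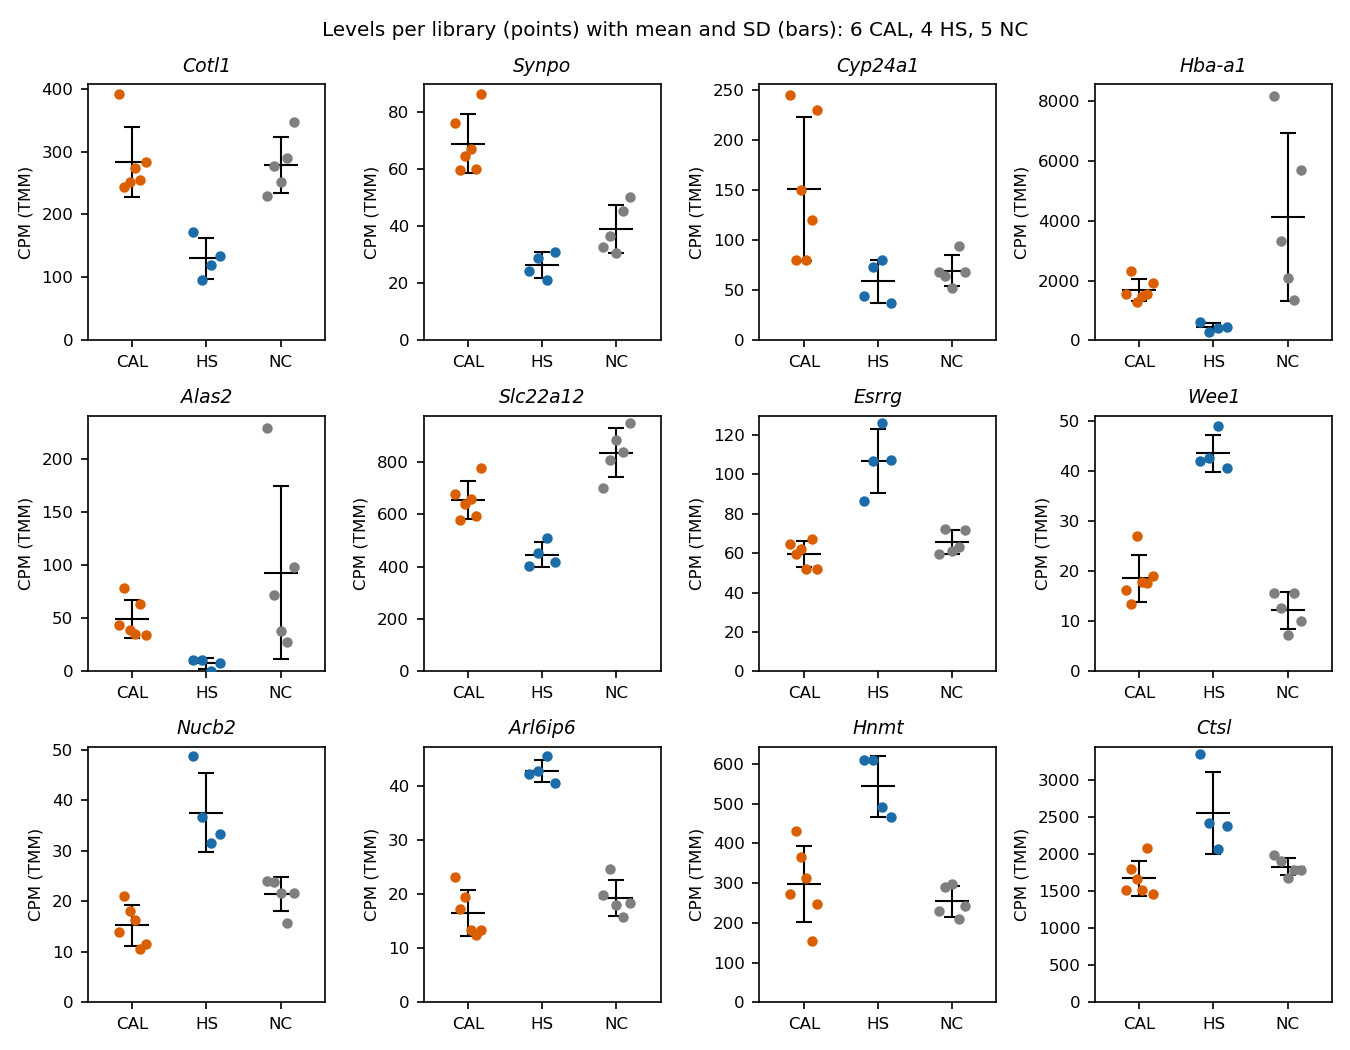
Points are the TMM-scaled CPM of each library, with bars for the mean and SD, for 12 genes past the threshold, in 6 CAL (orange), 4 HS (blue) and 5 NC (grey) libraries. Cotl1 and Synpo separate CAL from HS fully, Cyp24a1 spreads from 80.3 to 245 CPM in CAL, and Hba-a1 and Alas2 are lowest in HS and vary most in NC.

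Red cell genes had the largest fold changes among the called genes. Haemoglobin is carried in red cells, whose youngest forms, the reticulocytes, still hold its messenger RNA, and Alas2 is the enzyme that starts haem synthesis there. Their transcription depends on factors that bind GATA sequences, so the bases before the start of 4 of these genes are shown to let their likeness be read. Sequences are from RefSeq on GRCr8, 250 bases up to the start site, on the strand of the gene, and capitals mark AGATAA or TGATAA on either strand. The windows are chr10:15842581-15842830 for Hba-a1, chr10:15829139-15829388 for Hba-a2 and chr1:167663722-167663971 for Hbb, all on the minus strand, and chrX:22895200-22895449 on the plus strand for Alas2.
Hba-a1: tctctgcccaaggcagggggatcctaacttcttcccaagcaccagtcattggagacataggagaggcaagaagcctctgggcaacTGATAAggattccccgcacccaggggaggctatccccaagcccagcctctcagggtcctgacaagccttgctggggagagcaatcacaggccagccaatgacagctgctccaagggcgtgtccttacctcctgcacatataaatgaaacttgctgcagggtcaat
Hba-a2: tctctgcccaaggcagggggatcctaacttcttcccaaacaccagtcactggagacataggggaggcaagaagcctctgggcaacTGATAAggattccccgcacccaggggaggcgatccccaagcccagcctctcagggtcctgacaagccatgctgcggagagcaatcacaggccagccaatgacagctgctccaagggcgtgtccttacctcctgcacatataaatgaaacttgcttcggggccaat
Hbb: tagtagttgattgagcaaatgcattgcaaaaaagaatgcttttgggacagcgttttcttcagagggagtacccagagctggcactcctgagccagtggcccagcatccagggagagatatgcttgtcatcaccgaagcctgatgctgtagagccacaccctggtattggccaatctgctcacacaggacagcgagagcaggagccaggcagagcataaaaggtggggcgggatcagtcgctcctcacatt
Alas2: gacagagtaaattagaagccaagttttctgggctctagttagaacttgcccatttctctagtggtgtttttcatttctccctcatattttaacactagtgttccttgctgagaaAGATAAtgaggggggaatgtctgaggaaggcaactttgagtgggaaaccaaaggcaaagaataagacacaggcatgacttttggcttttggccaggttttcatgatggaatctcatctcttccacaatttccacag
Hba-a1 and Hba-a2 carried the same base at 241 of 250 positions and the motif 165 bases before the start, Alas2 carried it 136 bases before, and the Hbb window held neither form. In windows that run 50 bases past the start, 3 of the 6 tested red cell genes with a window held the motif, against 9.20% of 6087 tested genes and 18.6% of all 27457 windows. The alike Hba-a1 and Hba-a2 are among these 3. Median G and C content was 51.8% in the red cell windows, 61.3% in those of tested genes and 52.3% in all. The motif is mostly A and T, so the tested genes are not a like background. A match describes letters only, and no match says only that these letters are absent from the window.

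Hba-a1 had 1289 to 2317 CPM (median 1551) in CAL, against 601, 284, 431 and 462 CPM in HS and 4123 ± 2790.5 CPM in NC, and the lowest CAL library was above the highest HS library. Its log2 fold change was 1.92 (SE 0.34, adjusted p = 0.0105). The near-identical Hba-a2 had 603 to 1020.1 CPM (median 734) in CAL and 275, 128, 256 and 159 CPM in HS, also without overlap, at 1.91 (SE 0.33, adjusted p = 0.0105). Reads can be split between these 2 copies in ways the deposited counts do not show, so their separate levels are uncertain. Hbb, the beta chain, had 1524 to 3468 CPM (median 1994) in CAL and 944, 551, 691 and 422 CPM in HS, again without overlap, at 1.76 (SE 0.34, adjusted p = 0.0150). The calls of Hba-a1 and Hba-a2 were lost without HS replicate 2 (0.0697), and that of Hbb without HS replicates 2 (0.0817) or 4 (0.0776). Each of these 3 calls also missed the threshold under robust empirical Bayes, at 0.0800 for Hba-a1, 0.0794 for Hba-a2 and 0.0996 for Hbb.

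Alas2 had 34.5 to 78.8 CPM (median 41.1) in CAL, against 11.1, 10.7, 0 and 8.35 CPM in HS, where replicate 3 had no count. The fold change of 2.48 (SE 0.60, adjusted p = 0.0475) was the largest called, and it was lost in 11 of 15 fits (up to 0.134 without HS replicate 4). The Alas2 call was also lost with limma voom and library weights (0.129), robust empirical Bayes (0.164) and thinning to the shallowest library (0.225). Its HS values lay near the 3.53 to 10.4 CPM that a count of 0 allows in HS, so the size of this fold change is uncertain. Among the other tested red cell genes, Hba-a3 stood at 1.89 (SE 0.55, adjusted p = 0.0945) without overlap, Hbb-bs at 3.76 (SE 1.18, adjusted p = 0.131) with overlap and Slc4a1, which is also expressed in intercalated cells, at -0.13 (SE 0.22, adjusted p = 0.832). Of the 8 tested red cell genes 4 were called, all higher, beside 0.266% of all tested genes. The median of the 8 was 1.90. Among red cell genes too low to test, Ahsp had 15 counts over the CAL libraries, 3 over HS and 21 over NC.

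Haemoglobin genes took 0.356% to 0.671% of all counts in CAL, 0.0946% to 0.172% in HS and 0.378% to 1.95% in NC, so CAL and HS did not overlap. The platelet gene Pf4 averaged 16.6 ± 7.88 CPM in CAL and 3.91 ± 3.14 CPM in HS (1.74 (SE 0.48, adjusted p = 0.0835)), short of the threshold and without overlap, and Itga2b, the other tested gene of its list, had 0.01 (SE 0.30, adjusted p = 0.995) with overlap. White cell and platelet lists overlapped in their sums: 11 neutrophil and platelet genes, Pf4 included, summed to 30.1 to 71.7 CPM in CAL and 33.4 to 38.9 CPM in HS, with Mpo, Elane and Ngp at 0 in all 15 libraries, and 16 lymphocyte genes to 35.3 to 78.2 CPM in CAL and 45.9 to 76.0 CPM in HS. Whether the amount of blood in the tissue pieces moved with the red cell genes was not tested. When the red cell list was left out before scaling and testing, 33 genes passed, all of them among the 57. The 4 called red cell genes were in the list left out. The other lost calls came to an edgeR adjusted p between 0.0501 (as for Scamp1) and 0.0587 (Rap1a and Npm1), so they lay just past the threshold.

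Transporters of the proximal tubule moved one at a time. Slc22a12, the urate transporter URAT1, had 576 to 777 CPM (median 648) in CAL, against 403, 453, 508 and 419 CPM in HS and 835 ± 92.8 CPM in NC. CAL and HS did not overlap, and the CAL mean lay between those of HS and NC. Slc22a12 was higher by 0.56 (SE 0.12, adjusted p = 0.0273), lost without HS replicates 1 (0.0931), 2 (0.0817) or 4 (0.0853). Of 15 tested transporters of urate and organic ions it was the one called, beside 0.266% of all tested genes called higher, and the median was -0.07. Slc16a4, of the monocarboxylate transporter family, had 142 to 257 CPM (median 199.8) in CAL and 412, 320.4, 259 and 301 CPM in HS, where HS replicate 3 at 259 CPM lay only just above the highest CAL library. It was lower, at -0.72 (SE 0.16, adjusted p = 0.0337), lost without CAL replicates 3 (0.0656), 4 (0.0564) or 6 (0.0506) or HS replicates 1 (0.172), 2 (0.0817) or 4 (0.0752). Its relative Slc16a7, a carrier of pyruvate and lactate, was lower, at -0.72 (SE 0.17, adjusted p = 0.0445), and Slc6a19, which takes up neutral amino acids, at -0.68 (SE 0.16, adjusted p = 0.0446), with overlap between CAL and HS. These were lost in 10 of 15 fits (up to 0.160 without HS replicate 1) for Slc16a7 and in 11 of 15 fits (up to 0.188 without HS replicate 1) for Slc6a19. Slc6a19 was the one called of 14 tested amino acid transporters, beside 0.492% of all tested genes called lower. Of the 14, 10 were below 0, with Slc7a9 at -0.37 (SE 0.13, adjusted p = 0.163) and Slc7a7 at -0.43 (SE 0.16, adjusted p = 0.193).

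Among nuclear receptors and genes of the daily clock, Esrrg, Wee1 and Nr1d2 were called lower and Nr2f6 higher. Esrrg, an orphan receptor that drives genes of energy metabolism, had 51.8 to 67.1 CPM (median 60.8) in CAL, against 86.4, 107, 126 and 107 CPM in HS and 65.6 ± 5.99 CPM in NC, with every CAL library below every HS library. Esrrg was lower, at -0.82 (SE 0.15, adjusted p = 0.0141), lost without HS replicate 2 (0.0697). The orphan receptor Nr2f6 moved the other way, at 0.85 (SE 0.19, adjusted p = 0.0337), with 167 ± 30.7 CPM in CAL and 91.3 ± 5.50 CPM in HS and no overlap, lost without CAL replicate 4 (0.0714) or HS replicates 1 (0.0831), 2 (0.111), 3 (0.0741) or 4 (0.0853). Wee1, a kinase that holds back cell division and is under clock control, had 13.4 to 27.1 CPM (median 17.7) in CAL, against 42.1, 42.7, 49.1 and 40.6 CPM in HS and 12.3 ± 3.69 CPM in NC. The 4 HS libraries lay close together and well above all CAL libraries. Its fold change on the log2 scale was -1.21 (SE 0.24, adjusted p = 0.0199), lost without HS replicates 1 (0.0686), 2 (0.0817) or 4 (0.0591). Nr1d2, the clock repressor REV-ERB beta, was lower, at -0.85 (SE 0.21, adjusted p = 0.0476) without overlap, lost in 12 of 15 fits (up to 0.174 without HS replicate 1).

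Of 13 tested clock genes and outputs, Wee1 and Nr1d2 were called lower, beside 0.492% of all tested genes, and none higher, and 4 lay above 0, with a median of -0.21. The largest value of the list was that of Arntl, the core clock activator BMAL1, named after its values were seen, at 1.70 (SE 0.44, adjusted p = 0.0618), with every CAL library above every HS library. Just short of the threshold were Usp2, a ubiquitin protease with daily expression, at -0.99 (SE 0.24, adjusted p = 0.0503), and Dbp, a transcription factor of the clock output, at -1.11 (SE 0.28, adjusted p = 0.0586). Neither Usp2 nor Dbp overlapped between CAL and HS. The hour of tissue collection was not used here, and whether it differed between the groups was not tested. Wee1 was also the one called among 12 tested cell cycle genes, again beside 0.492% of all tested genes called lower. In that list Smc4, a condensin subunit, had -0.95 (SE 0.31, adjusted p = 0.141) without overlap.

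Several called genes with products in the secretory pathway or in lysosomes were lower, as were 37 of the 57 calls in all; they were gathered from the calls and are not a list. Nucb2, a calcium-binding protein and the precursor of nesfatin-1, had 10.6 to 21.1 CPM (median 15.2) in CAL, against 48.8, 36.6, 31.6 and 33.4 CPM in HS and 21.4 ± 3.35 CPM in NC. No CAL library reached the lowest HS library. Nucb2 was lower, at -1.30 (SE 0.25, adjusted p = 0.0146), lost without HS replicates 1 (0.0817) or 2 (0.0697). Arl6ip6 is placed here by the size of its change and not by a compartment. Its level was 12.4 to 23.1 CPM (median 15.4) in CAL, against 42.1, 42.7, 45.6 and 40.6 CPM in HS and 19.3 ± 3.31 CPM in NC, again with a wide gap between the groups. Arl6ip6 was lower, at -1.27 (SE 0.23, adjusted p = 0.0141), lost without HS replicate 2 (0.0697). Ctsl, the lysosomal protease cathepsin L, had 1465 to 2076 CPM (median 1589.9) in CAL and 3352, 2417, 2065 and 2382 CPM in HS, and the highest CAL library reached the lowest HS library. Its log2 fold change was -0.61 (SE 0.13, adjusted p = 0.0221), lost without HS replicates 1 (0.148), 2 (0.0812) or 4 (0.0531). Sppl2a, a protease that cuts membrane proteins in lysosomes, had 77.3 to 97.3 CPM (median 90.9) in CAL and 157, 185, 182 and 138 CPM in HS without overlap, at -0.86 (SE 0.17, adjusted p = 0.0174), lost without HS replicates 1 (0.0678) or 2 (0.0817). Tmem41b, a lipid scramblase of the endoplasmic reticulum needed to form autophagosomes, had 40.1 to 53.0 CPM (median 46.9) in CAL and 86.4, 90.0, 56.1 and 84.7 CPM in HS, where replicate 3 lay lowest and close to CAL. It was lower, at -0.78 (SE 0.17, adjusted p = 0.0332), lost without CAL replicate 4 (0.0714) or HS replicates 1 (0.108), 2 (0.117) or 4 (0.0853).

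Other called genes of these compartments were Ssr3, a subunit of the translocon-associated complex, at -0.60 (SE 0.14, adjusted p = 0.0410), Asph, an aspartate hydroxylase of the endoplasmic reticulum, at -0.70 (SE 0.16, adjusted p = 0.0354), and Yipf4 of the Golgi, at -0.69 (SE 0.15, adjusted p = 0.0354). Scamp1, a secretory carrier membrane protein, stood at -0.75 (SE 0.17, adjusted p = 0.0376), and Rab18, a GTPase of the endoplasmic reticulum and lipid droplets, at -0.84 (SE 0.20, adjusted p = 0.0449). Among these 5 genes CAL and HS overlapped for Rab18 only. They were lost in 9 of 15 fits (up to 0.187 without HS replicate 1) for Ssr3, without CAL replicates 3 (0.0656) or 6 (0.0506) or HS replicates 1 (0.131), 2 (0.126) or 4 (0.0837) for Asph, in 7 of 15 fits (up to 0.134 without HS replicate 4) for Yipf4, in 7 of 15 fits (up to 0.117 without HS replicate 2) for Scamp1 and in 10 of 15 fits (up to 0.197 without HS replicate 2) for Rab18. Not every call of this kind was lower. Lamtor1, which anchors the Ragulator complex of mTORC1 signalling to lysosomes, was higher by 0.67 (SE 0.16, adjusted p = 0.0450), lost in 12 of 15 fits (up to 0.161 without HS replicate 1). Mlph, a vesicle protein described below, was also higher, by 1.61 (SE 0.32, adjusted p = 0.0221). In a list of 22 tested chaperones and other genes of the endoplasmic reticulum, 1 was called lower (Nucb2), beside 0.492% of all tested genes. Of the 22, 20 were below 0, beside 3839 of all 7524 tested genes, and the median was -0.20. Dnajb9 stood at -0.73 (SE 0.19, adjusted p = 0.0598), Herpud1 at -0.37 (SE 0.14, adjusted p = 0.187) and Pdia3 at -0.35 (SE 0.14, adjusted p = 0.212). Of 22 tested autophagy genes none was called, and the lysosomal membrane protein Lamp2 was closest, at -0.62 (SE 0.15, adjusted p = 0.0515).

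Several signalling genes were lower with calcitriol. Rap1a, a small GTPase that acts in cell adhesion, averaged 82.4 ± 5.75 CPM in CAL and 122 ± 14.5 CPM in HS. Its log2 fold change was -0.59 (SE 0.14, adjusted p = 0.0476), without overlap, lost in 11 of 15 fits (up to 0.178 without HS replicate 1). Pdcd10, a scaffold protein that keeps small vessels intact, had 49.4 to 76.8 CPM (median 55.9) in CAL and 135, 82.4, 87.6 and 113 CPM in HS without overlap, at -0.87 (SE 0.18, adjusted p = 0.0273), lost without CAL replicate 1 (0.0661) or HS replicates 1 (0.145), 2 (0.0678) or 4 (0.0853). Cd200, a membrane protein that restrains myeloid cells through its receptor, had 15.9 to 38.0 CPM (median 29.6) in CAL, against 48.8, 94.6, 52.6 and 57.3 CPM in HS and 42.7 ± 6.63 CPM in NC. HS replicate 2 lay far above the rest of its group, and without it the call was lost (0.149). That fit lost 55 of the 57 calls, so the loss is not particular to Cd200. The log2 fold change with all libraries was -1.11 (SE 0.23, adjusted p = 0.0221). Nptn, an immunoglobulin-family adhesion protein, was lower, at -0.67 (SE 0.15, adjusted p = 0.0337), lost without CAL replicates 1 (0.0661) or 4 (0.0714) or HS replicates 1 (0.0690), 2 (0.0824), 3 (0.0741) or 4 (0.0892).

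Enzymes of metabolism were called on both sides. Hnmt, which inactivates histamine, had 155 to 432 CPM (median 293) in CAL, against 609.6, 610.3, 491 and 465 CPM in HS and 254 ± 38.2 CPM in NC, without overlap between CAL and HS. It was lower, at -0.87 (SE 0.18, adjusted p = 0.0221), lost without HS replicates 1 (0.0931) or 2 (0.0819). Nat8f3, of the N-acetyltransferase 8 family, had 114 to 171 CPM (median 135) in CAL and 255, 215, 199.8 and 278 CPM in HS, without overlap, at -0.76 (SE 0.14, adjusted p = 0.0145), lost without HS replicates 1 (0.0686), 2 (0.0678) or 4 (0.0789). Also lower were Sc5d, a desaturase late in cholesterol synthesis (-0.75 (SE 0.17, adjusted p = 0.0405)), Sptssa, a small subunit of the enzyme that starts sphingolipid synthesis (-0.80 (SE 0.19, adjusted p = 0.0410)), Ggact, a cyclotransferase (-0.78 (SE 0.18, adjusted p = 0.0410)), and Ncoa4, the receptor that delivers ferritin to lysosomes (-0.51 (SE 0.12, adjusted p = 0.0394)). They were lost in 8 of 15 fits (up to 0.187 without HS replicate 1) for Sc5d, in 8 of 15 fits (up to 0.163 without HS replicate 2) for Sptssa, in 8 of 15 fits (up to 0.217 without HS replicate 1) for Ggact and in 7 of 15 fits (up to 0.157 without HS replicate 1) for Ncoa4. Impa2, an inositol monophosphatase, was higher by 0.82 (SE 0.19, adjusted p = 0.0405), lost in 8 of 15 fits (up to 0.108 without HS replicate 1), and the aminopeptidase-like Npepl1 by 0.69 (SE 0.15, adjusted p = 0.0369), lost without CAL replicates 2 (0.0546) or 6 (0.0579) or HS replicates 1 (0.108), 2 (0.127), 3 (0.0736) or 4 (0.0830).

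Sc5d was the one called of 19 tested genes of cholesterol synthesis, beside 0.492% of all tested genes called lower. Dhcr7 and Mvd of the same pathway had positive values short of the threshold, at 0.76 (SE 0.29, adjusted p = 0.193) and 1.03 (SE 0.41, adjusted p = 0.215). The median of the list was -0.10. Ncoa4 was the one called of 7 tested genes of iron handling, again beside 0.492%, with a median of 0.06.

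Called genes of RNA handling and of the nucleus lay on both sides. Ddx19b, a helicase of messenger RNA export, had 169 to 249 CPM (median 198) in CAL and 162, 101, 109 and 124 CPM in HS, at 0.76 (SE 0.16, adjusted p = 0.0332), where HS replicate 1 came close to the lowest CAL library. Rbpms2, an RNA-binding protein, had 101 to 138 CPM (median 127) in CAL and 66.5, 83.9, 77.1 and 75.2 CPM in HS, at 0.68 (SE 0.15, adjusted p = 0.0332), and Cdk2ap2 had 246 to 376 CPM (median 276) in CAL and 191, 192, 196 and 191 CPM in HS, at 0.60 (SE 0.13, adjusted p = 0.0273). None of these 3 overlapped between CAL and HS, and the 4 HS values of Cdk2ap2 were nearly equal. Ddx19b was lost without CAL replicate 1 (0.0666) or HS replicates 2 (0.137), 3 (0.0741) or 4 (0.0853), Rbpms2 without CAL replicates 1 (0.0590) or 6 (0.0506) or HS replicates 1 (0.0991), 2 (0.0817), 3 (0.0684) or 4 (0.0853) and Cdk2ap2 without CAL replicate 4 (0.0516) or HS replicates 1 (0.0817), 2 (0.0817), 3 (0.0539) or 4 (0.0837). Rbm38, an RNA-binding protein induced by p53, was higher by 1.26 (SE 0.30, adjusted p = 0.0410), lost in 7 of 15 fits (up to 0.163 without HS replicate 2). Npm1, the nucleolar protein nucleophosmin, was lower, at -0.57 (SE 0.14, adjusted p = 0.0476), lost in 12 of 15 fits (up to 0.152 without HS replicate 4), and Hbp1, a repressor of cell cycle genes, at -0.55 (SE 0.13, adjusted p = 0.0410), lost in 9 of 15 fits (up to 0.148 without HS replicate 1). Of 26 tested splicing factors none was called, but 20 were below 0, with a median of -0.16. The 31 listed genes summed to 2276 to 2640 CPM in CAL and 2725 to 2820 CPM in HS. These sums, which are without TMM scaling, did not overlap, but the gap was narrow. The sums of the cytokine and chemokine list, given below, did not overlap either. For each tested splicing factor taken alone, CAL and HS overlapped. Srsf10 had -0.77 (SE 0.25, adjusted p = 0.131) and Tra2b -0.52 (SE 0.17, adjusted p = 0.131).

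The remaining called genes with assigned symbols were Mlph, Tinag, Lrrc19, Commd8, Zfand5 and Tsx. Mlph, melanophilin, links Rab27a on vesicles to a myosin motor and had 23.0 to 59.8 CPM (median 38.3) in CAL, against 6.65, 13.7, 24.5 and 11.9 CPM in HS and 49.3 ± 9.84 CPM in NC. HS replicate 3 lay inside the CAL range. Mlph was higher by 1.61 (SE 0.32, adjusted p = 0.0221), lost without CAL replicate 1 (0.0526) or HS replicates 1 (0.0856), 2 (0.0817) or 4 (0.0837). Tinag, a protein of tubule basement membranes, was lower, at -0.86 (SE 0.20, adjusted p = 0.0376), and Lrrc19, a leucine-rich repeat membrane protein, at -0.96 (SE 0.23, adjusted p = 0.0410), both with overlap. Commd8 was lower, at -0.78 (SE 0.18, adjusted p = 0.0410), Zfand5 at -0.69 (SE 0.16, adjusted p = 0.0410) and Tsx at -1.22 (SE 0.28, adjusted p = 0.0376), without overlap. These 5 were lost in 7 of 15 fits (up to 0.173 without HS replicate 1) for Tinag, in 8 of 15 fits (up to 0.210 without HS replicate 1) for Lrrc19, in 9 of 15 fits (up to 0.157 without HS replicate 1) for Commd8, in 7 of 15 fits (up to 0.209 without HS replicate 1) for Zfand5 and in 7 of 15 fits (up to 0.163 without HS replicate 2) for Tsx. LOC688389, which has no assigned symbol, was chosen after its values were seen because it passed in all 10 fits with other settings: it averaged 1739 ± 164 CPM in CAL and 2953 ± 529 CPM in HS, at -0.76 (SE 0.14, adjusted p = 0.0145), lost without HS replicates 1 (0.0686) or 2 (0.0817).

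**Figure D4:**
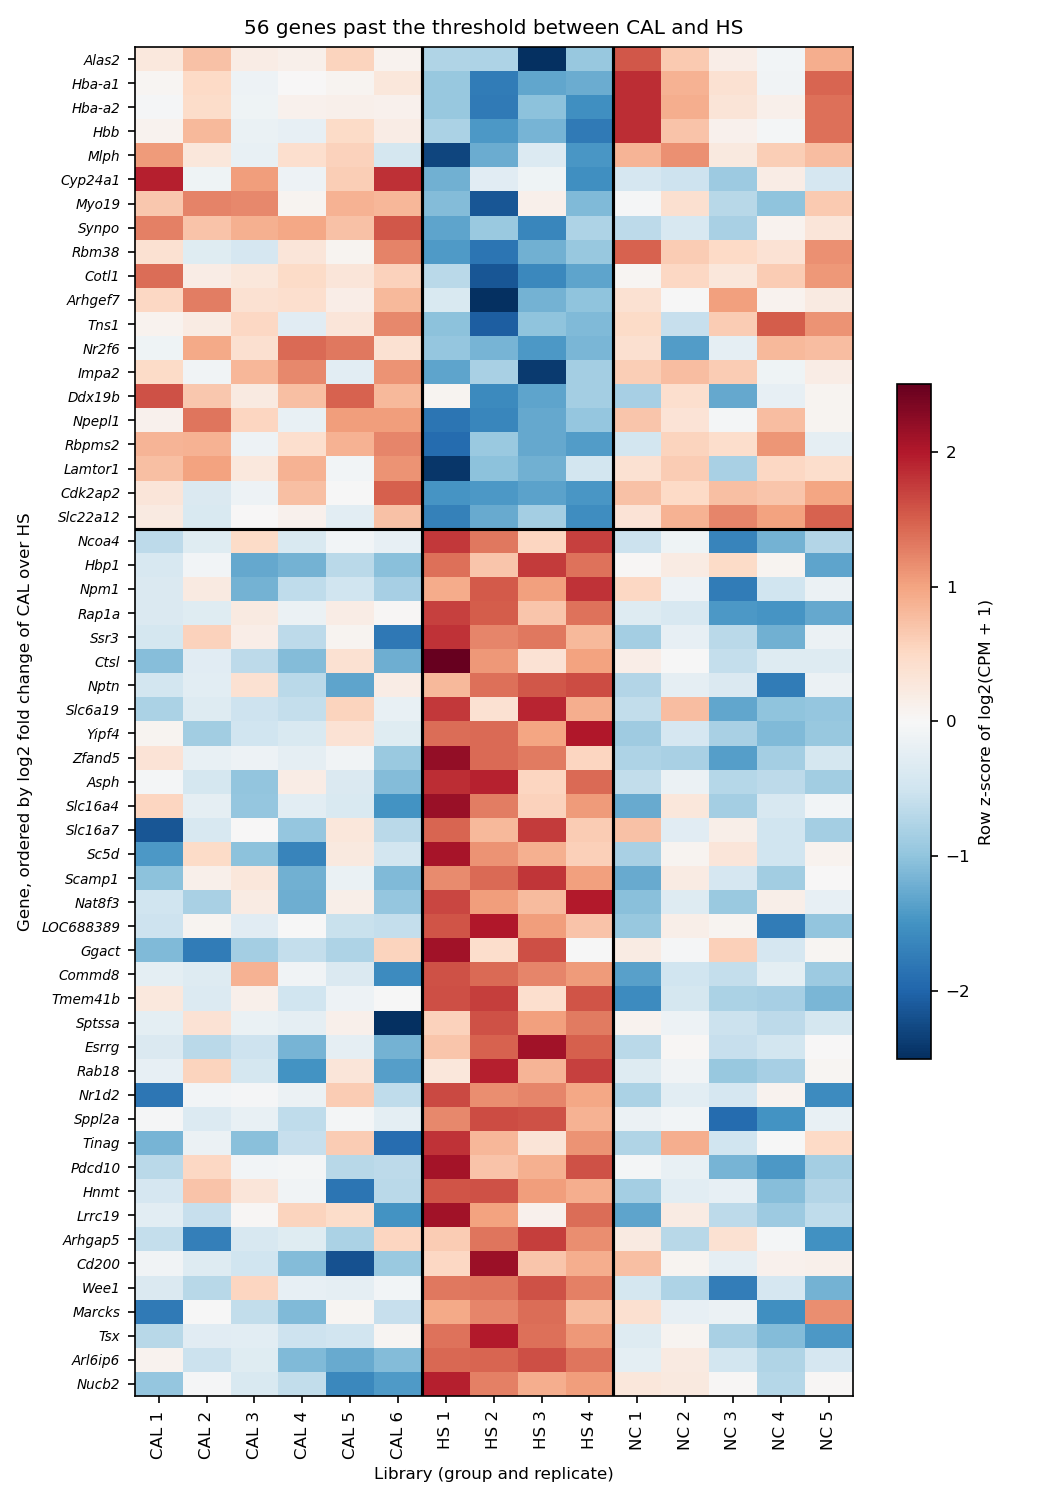
Rows are 56 of the 57 genes past the threshold, ordered by log2 fold change of CAL over HS, and columns the 15 cortex libraries. Colour gives the z-score of log2(CPM + 1) within a row. The upper block (20 genes) is blue in the 4 HS libraries and the lower block (36 genes) red in them; these genes were chosen by that contrast.

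The NC level is given beside CAL and HS because the same 4 HS libraries stand in both CAL over HS and HS over NC, so the values of the 2 comparisons are not independent. HS over NC was -3.22 (adjusted p = 9.44e-06) for Hba-a1, 1.79 (adjusted p = 0.000448) for Wee1, -1.93 (adjusted p = 0.00119) for Mlph, -1.10 (adjusted p = 0.000766) for Cotl1, 0.68 (adjusted p = 0.00857) for Esrrg, -0.91 (adjusted p = 0.000143) for Slc22a12, -0.49 (adjusted p = 0.153) for Synpo and -0.29 (adjusted p = 0.595) for Cyp24a1. CAL over NC was -1.30 (adjusted p = 0.0832) for Hba-a1, 0.58 (adjusted p = 0.383) for Wee1, -0.31 (adjusted p = 0.595) for Mlph, 0.04 (adjusted p = 0.948) for Cotl1, -0.13 (adjusted p = 0.733) for Esrrg, -0.35 (adjusted p = 0.191) for Slc22a12, 0.84 (adjusted p = 0.0832) for Synpo and 1.17 (adjusted p = 0.0832) for Cyp24a1. Among all tested genes, 831 (11%) passed between HS and NC. Between CAL and NC no gene passed (0%) by edgeR, 892 had an unadjusted p under 0.05, and no other tool was run on that comparison.

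Many pathways of the cortex held no called gene. No gene was called among 21 tested genes of sodium and chloride transport (median -0.10), where Slc12a1, the sodium-potassium-chloride cotransporter of the thick ascending limb, had -0.55 (SE 0.20, adjusted p = 0.185) and Fxyd2, a subunit that tunes the sodium pump, 0.36 (SE 0.14, adjusted p = 0.209). Nor was one called among 10 tested genes of the renin-angiotensin-aldosterone system (median -0.21). Mme, the peptidase neprilysin, had -0.69 (SE 0.21, adjusted p = 0.11) and the angiotensin receptor Agtr1a -0.49 (SE 0.21, adjusted p = 0.263). None of the values named for these lists passed the threshold, which does not show that the groups are alike.

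Metabolic lists also stayed without calls. Among 23 tested genes of glycolysis, fructose use and glucose synthesis, 17 were above 0 with a median of 0.18, and the fructose genes led, with Khk, ketohexokinase, at 0.47 (SE 0.13, adjusted p = 0.0835), Slc2a5, the fructose transporter, at 0.96 (SE 0.30, adjusted p = 0.123) and Tkfc, which acts on a later product, at 0.53 (SE 0.18, adjusted p = 0.161). Among 23 tested genes of fatty acid oxidation, 17 were above 0 with a median of 0.13. Eci1, an isomerase of that pathway, had 0.89 (SE 0.22, adjusted p = 0.0520) and did not overlap between CAL and HS. The 32 tested respiratory chain genes had a median of -0.06 and the 16 of the citrate cycle -0.09. Uqcrb, a subunit of complex III, was closest to a call among them, at -0.41 (SE 0.11, adjusted p = 0.0669), and did not overlap.

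Lists of stress, inflammation and scarring had no called gene. Medians were 0.01 for 28 tested genes of oxidative stress defence, 0.07 for 12 of tubule injury, 0.05 for 19 of extracellular matrix, -0.11 for 10 cytokines and chemokines and -0.22 for 10 interferon genes. Gpx1, glutathione peroxidase, had 0.43 (SE 0.12, adjusted p = 0.0943) and Cat, catalase, -0.38 (SE 0.12, adjusted p = 0.115), each without overlap, and Nox4, a kidney NADPH oxidase, -0.64 (SE 0.18, adjusted p = 0.0945). Cxcl12, a chemokine of stromal cells, had -0.62 (SE 0.17, adjusted p = 0.0806) and Il33, an alarm cytokine, -0.42 (SE 0.14, adjusted p = 0.134). The 23 listed cytokine and chemokine genes summed to 879 to 940 CPM in CAL and 957 to 1157 CPM in HS, a narrow gap without overlap. In NC they summed to 820 to 1009 CPM. Col4a2 and Fn1 of the matrix had 0.87 (SE 0.40, adjusted p = 0.286) and -0.81 (SE 0.39, adjusted p = 0.306). Of 9 tested macrophage and dendritic cell markers 8 were below 0, with a median of -0.31, and Aif1 was lowest in p, at -0.68 (SE 0.23, adjusted p = 0.145). None of the named values in these lists passed the threshold.

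**Figure D5:**
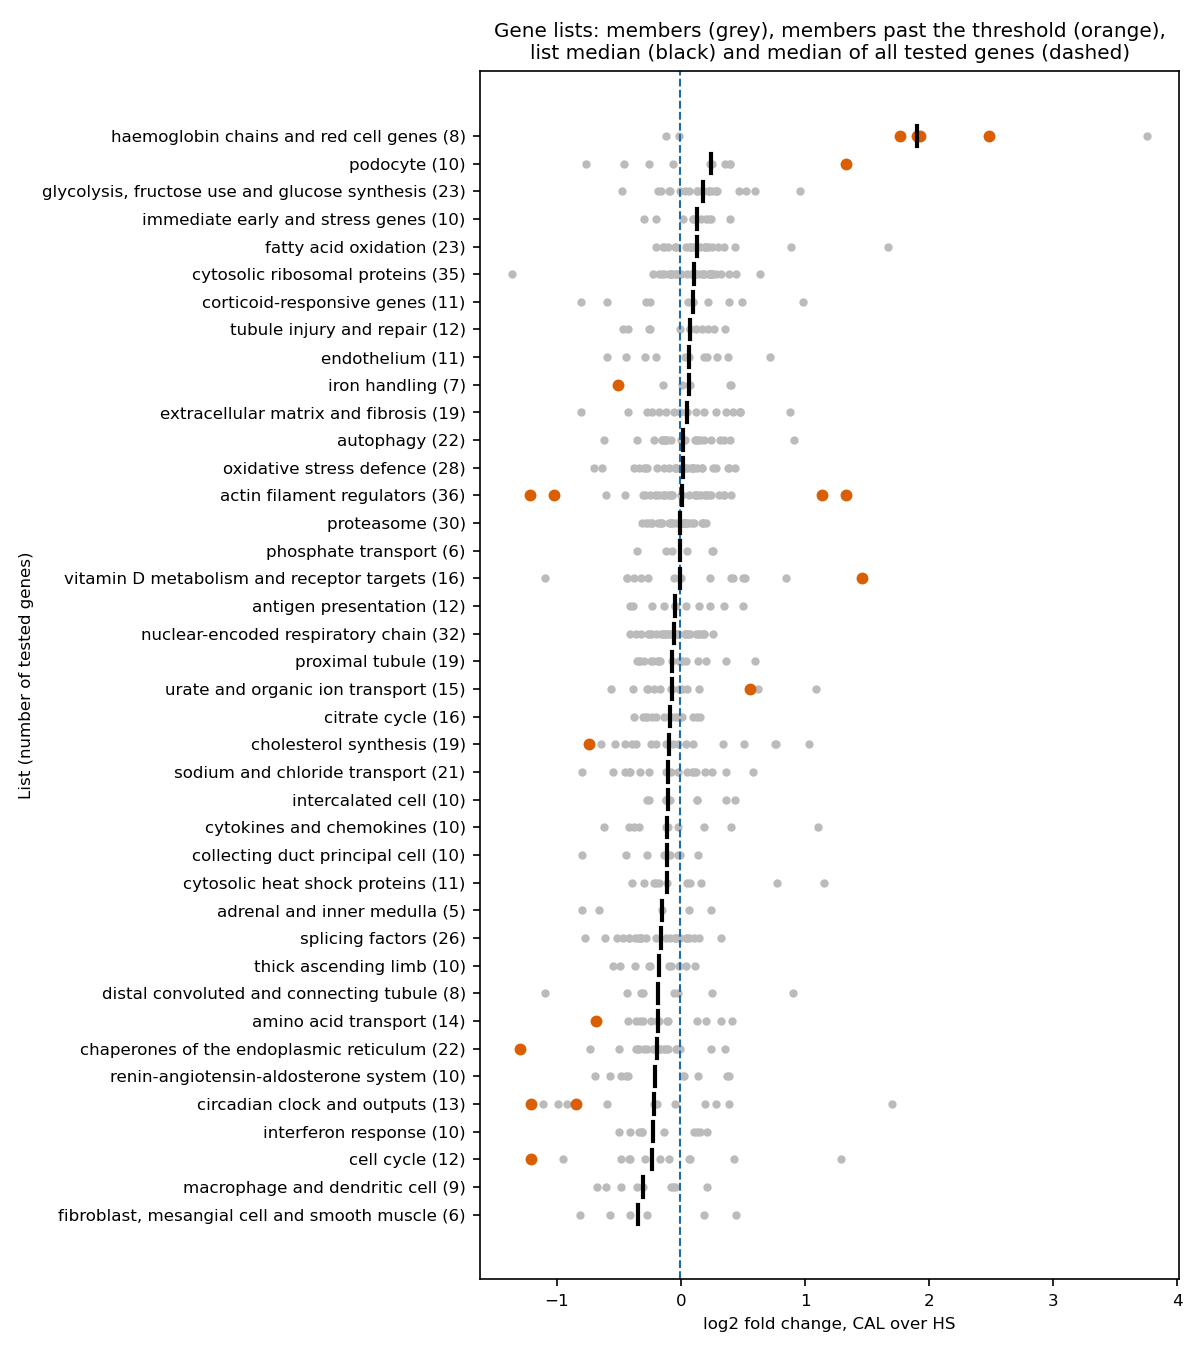
Each grey point is the log2 fold change of CAL over HS of 1 tested gene, in 40 lists with at least 5 tested genes ordered by their median (black bar); orange points passed the threshold, and the dashed line is the median of all tested genes, -0.01. The red cell list stands at 1.90, and the medians of the other lists lie between -0.34 and 0.24.

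Of the 42 lists, 11 held a called gene, beside 0.758% of all tested genes called. Lists share genes: Wee1 is a call of both the clock and cell cycle lists, and Synpo of both the actin and podocyte lists. Lists also differ in size, so this count is no measure of how widely calls spread. Just inside the threshold were Npm1, Nr1d2 and Rap1a, each at an adjusted p of 0.0476, and just outside it Usp2, Tmem207 and Dapk2, each at 0.0503. The other genes just outside were Fbxo3 (-0.59), Slc21a4 (-0.83), Lamp2 (-0.62) and Capza2 (-0.60) on the lower side, with Tmem207 at -0.96. On the higher side were Dapk2 (0.78), Hpcal1 (0.76), Glis2 (0.89), Eci1 (0.89), Slc45a3 (1.18) and Eif2b2 (0.79), as log2 fold changes. Their adjusted p lay between 0.0503 and 0.0525, so the line between called and not called runs through genes of like size, and 21 of the 57 called genes had an adjusted p of 0.04 or above.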

How the data were processed

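RNA of kidney cortex was extracted with TRIzol, and libraries were built, per the labels' protocols, with a transposase-based kit, which keeps no strand information, so overlapping antisense genes cannot be told apart. Per the submitters' processing notes, the tools were FastQC 0.11.9, Trimmomatic 0.39, HISAT2 2.1.0 and featureCounts 1.6.5, with the build Rnor_6.0; the gene annotation and the strand setting are not given in the sources used here. The authors deposited 1 table of raw counts (reads per gene symbol, whole numbers, no normalization), of which the 15 cortex columns were used and the 16 colon columns were not.

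From these counts, genes passing the edgeR 4.0.16 low-count filter (minimum count 10, minimum total 15) were fitted by quasi-likelihood in R 4.3.3 to CAL, HS and NC together after TMM scaling, and CAL was tested against HS. P-values are two-sided and Benjamini-Hochberg adjusted over all 7524 tested genes, with a threshold of 0.05, and standard errors come from the quasi-likelihood F. The test was also run on counts simulated with the fitted dispersions. No simulated library was made to differ in level from its group, so that run does not show how calls hinge on single libraries. Each of 42 gene lists (30 by function, 12 of cell type markers; 821 of 845 entries were listed in the table, 1 through a synonym) is described by its calls and median without a test.

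Named genes are every called gene with an assigned symbol, with values by library for the 12 higher and 12 lower of smallest p, 8 genes of vitamin D action, phosphate transport and blood pressure control, up to 4 members of smallest p per list, and the 6 genes each way nearest outside the threshold; some genes of this rule are not reported here. Genes and lists were chosen with earlier results of these data known, so the calls of a list beside the share of all tested genes are no test of it. Promoter windows came from the RefSeq table for GRCr8, matched by symbol for 6087 tested genes, and were used for sequence only. Alternative fits used limma 3.58.1 voom with library weights, DESeq2 1.42.0, edgeR with the DESeq2 scaling, 2 other filters, CAL and HS alone, robust empirical Bayes, a replicate block, thinning, leaving out red cell genes, and leaving out each library. No pair of libraries within a group held identical values, and pairs across groups were not compared.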

Additional observations from a re-analysis of the deposited data

Results flagged for a closer look

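In 52 sets of values (24 genes, the total count and the haemoglobin share, each in CAL and in HS), 5 single libraries stood far from the rest of their group by Dixon's criterion at the 95% level, where chance alone flags about 1 set in 20. CAL replicate 1 had 2265164 counts in all, against 764666 in the next deepest CAL library. The same library had 391.6 CPM of Cotl1, with the next CAL library at 284 CPM, and Cotl1 passed the threshold without it. CAL replicate 2 had 1020 CPM of Hba-a2, with the next CAL library at 748 CPM. HS replicate 3, the shallowest library, had 56.1 CPM of Tmem41b, below the other HS libraries, of which the lowest had 84.7 CPM. HS replicate 2 had 64.1 CPM of Tns1, below the next HS library at 94.3 CPM. The Tns1 call was lost without it (edgeR adjusted p = 0.144), as it was without each of the other HS libraries.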

How the results depend on the processing

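The count of 57 genes past the threshold stayed within 1.5 times with voom and library weights (62), DESeq2 size factors in edgeR (53), a filter of 1 CPM in 4 libraries (53) and robust empirical Bayes (70). It came to 96 with DESeq2 (52 of the 57 among them), 128 with no filter on low counts (52), 33 without red cell genes (33), 30 with CAL and HS libraries alone (27), and 5 when libraries were thinned to the shallowest (5), which also tests fewer genes, 5582. Leaving out 1 library at a time gave 2 to 80. The labels do not say whether replicate numbers pair the libraries. Same-numbered CAL and HS libraries correlated in their deviations at 0.01, 0.04, 0.00 and -0.06 for numbers 1 to 4, and no HS library correlated best with its own number. Counts this low leave much counting error in such deviations, so this check cannot exclude pairing. With the replicate number as a block, 22 genes passed, 18 of them among the 57, and Cyp24a1 was not among them (edgeR adjusted p = 0.0811). No called gene changed direction in any of the 25 other fits. Uncalled values that did were Slc34a1 (0.011 without HS replicate 1; -0.146 to 0.011 over the fits without 1 library) and Dhcr7 (-0.046 when thinned). List medians shifted by no more than the SD of their members' log2 fold changes in 1018 values. They shifted by more in 30, most of them of the lymphocyte list, which had 1 tested gene and so no SD. That SD is wide beside most medians, so a median could change sign within it, and the count does not show that the medians are stable. The cause of these differences was not tested, for thinning as for the other settings. With a median of 635788 counts in CAL and 578703 in HS, low genes such as Cyp27b1 could not be compared.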
